A study of Homo sapiens
Mus musculus and Homo sapiens with 21 samples.

Results

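Oxidative phosphorylation genes were followed in the brains of mice that carried human lung cancer metastases. The members were the genes of the mouse table whose symbols name subunits of complexes I, III, IV and V, chosen by symbol alone: mt-Nd, mt-Co, mt-Cytb and mt-Atp for the mitochondrial genome, and Ndufa, Ndufb, Ndufs, Ndufv, Uqcr, Cox4 to Cox8 and Atp5 for the nucleus. Assembly factors named Ndufaf were left out, as were 5 pseudogene symbols. This gave 86 of 33043 genes. Complex I supplied 33 nuclear and 6 mitochondrial members, complex III 8 and 1, complex IV 17 and 1, and complex V 15 and 1. A further 4 nuclear genes carry such names but are not counted here as subunits (Ndufa4l2, Cox7a2l, Atp5s and Atp5sl), and Ndufa4 was counted with complex IV.

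RNA-seq libraries came from athymic nu/nu mice, which lack T cells, and the human line was H2030-BrM3, a brain-metastatic lung adenocarcinoma line. Mice aged 5 to 6 weeks were injected, into the heart for brain metastases, and tumour tissue was dissected by eye together with the surrounding stroma. The groups were tumour-bearing forebrain (FBMet, 3 libraries), tumour-free forebrain (FB, 4), tumour-bearing hindbrain (HBMet, 3) and tumour-free hindbrain (HB, 4). The tumour-free libraries carry the same strain and cell line labels, and those labels do not say whether the mice had been injected. The age is recorded for the tumour-bearing groups only, so whether the tumour-free mice were of the same age is not known. The labels number the replicates without saying that each is a separate mouse, so the p-values measure the spread between these libraries, part of which may be technical. The libraries mix human and mouse RNA, and the values used here are those the authors assigned to mouse genes.

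Oxidative phosphorylation is the process by which mitochondria make most of a neuron's ATP. Complexes I, III and IV pass electrons to oxygen and pump protons across the inner mitochondrial membrane, and complex V, the ATP synthase, uses the returning protons to make ATP. The complexes are built from subunits of both genomes: the mitochondrial DNA encodes hydrophobic core subunits and is transcribed by its own polymerase, while the other subunits are transcribed in the nucleus and imported. Several subunits of complex IV exist as paired forms, a common one and one restricted to tissues such as heart, skeletal muscle, lung or testis.

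The authors' RPKM, a read count scaled to gene length and library depth, were rescaled so that each library's mouse values summed to 1000000. All levels below are on this scale, which allows a rough comparison between genes. Whether the reads of every gene were counted equally well was not tested. Whole reads recovered from the RPKM steps numbered 52358082 to 86139353 in the tumour-bearing libraries and 17747167 to 23034782 in the tumour-free ones, so depth and tumour state cannot be told apart. Human reads made up 4.83% to 7.52% of the reads in the tumour-bearing libraries and at most 0.0315% in the tumour-free ones. At the rate at which human monolayer cells gave reads on mouse genes, at most 0.0032% of the members' reads in tumour-bearing brain would be human. The regional labels were checked with 8 markers of cerebellar granule and Purkinje neurons: their summed level was 254 to 316 in FBMet and 318 to 404 in FB, against 1870 to 2691 in HBMet and 1219 to 2789 in HB.

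A test was possible for 84 members. The other 2, mt-Atp6 and mt-Nd3, were listed at 0 in nearly every library and held at most 2 reads and 1 read in any library. The cause of these near-absent reads was not tested. The mouse table held 9 protein genes of the mitochondrial genome, without mt-Co2, mt-Co3, mt-Nd4l and mt-Atp8. The mitochondrial sums below therefore rest on 7 genes, none of them of complex V. Across the 77 nuclear members, levels in FB ran over several orders of magnitude, with 55 above 100 and 8 below 10. Their order hardly moved between groups: Spearman's rho across the 77 genes was 0.993 between the FBMet and FB means, 0.997 between the HBMet and HB means and 0.986 between the FB and HB means. These are descriptions across genes, which are not independent replicates.

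Nuclear genes of oxidative phosphorylation were lower in forebrain with tumours than in forebrain without. In limma's test on log2(value + 1), with Benjamini-Hochberg adjustment over all 15777 genes tested and a call at an adjusted p under 0.05, 53 members fell in FBMet and 2 rose. All 53 were nuclear, of 77 nuclear members, and the 2 that rose, mt-Cytb and mt-Nd4, were mitochondrial. Over all genes tested, 16% were called lower and 14.4% higher. The median log2 difference was -0.38 over the nuclear members, which is 23.2% lower on the value + 1 scale, against a median of -0.03 over all genes tested. The number called lower was 33 without FBMet replicate 2; over the other libraries left out in turn it was at most 61.

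The summed level of the nuclear members was 15309, 14356 and 15000 in FBMet, against 17240, 18372, 20862 and 22124 in FB. The 3 FBMet libraries all lay below the lowest FB library, and the FB libraries spread more widely, with replicates 1 and 2 below replicates 3 and 4. The FBMet mean was 14889 ± 486 (SD, n = 3) and the FB mean 19649 ± 2238 (SD, n = 4), a ratio of 0.758. The nuclear members together made up 1.49% ± 0.0486 (SD, n = 3) of all mouse values in FBMet and 1.96% ± 0.224 (SD, n = 4) in FB. In bulk tissue, fewer cells of a type and less RNA per cell cannot be told apart. Single genes followed the sum: 52 of the 84 members tested had every FBMet library below every FB library, where 20.8% of all genes tested did.

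**Figure D1:**
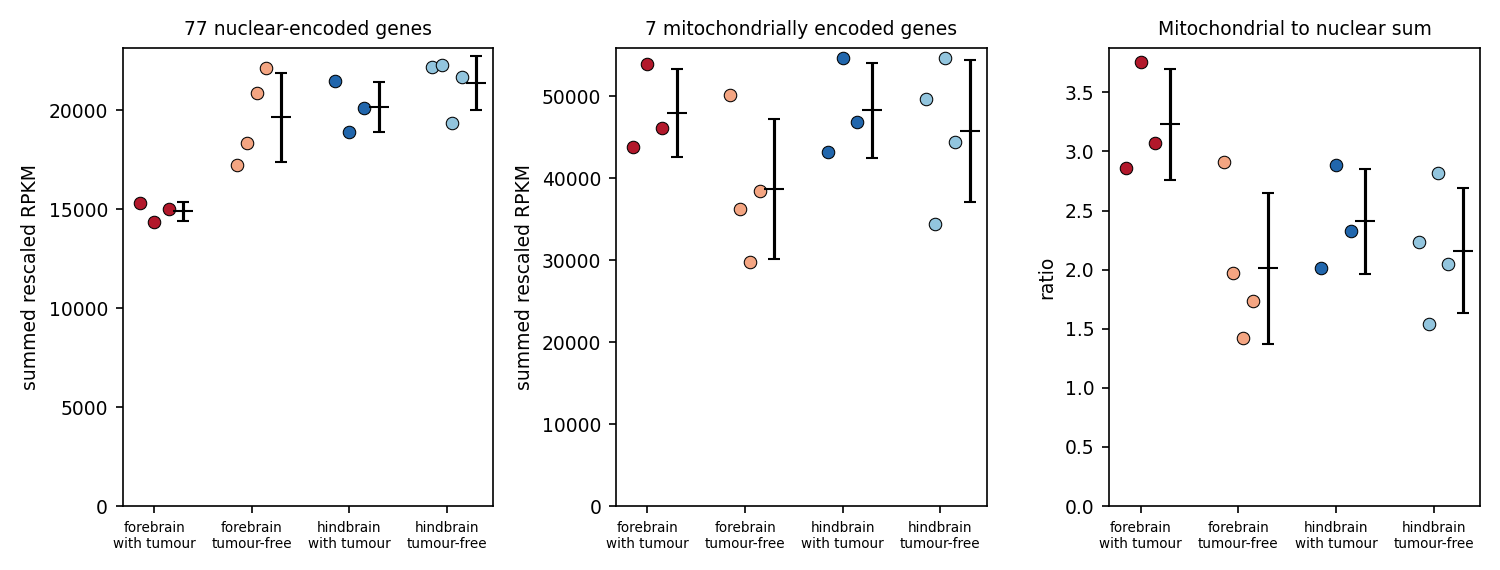
Summed rescaled RPKM of the 77 nuclear members (left) and of the 7 tested mitochondrial members (middle), and the ratio of the mitochondrial to the nuclear sum (right, no unit), for each library of the 4 groups. Points are libraries, and the bar beside them is the mean ± SD (n = 3 with tumour, n = 4 tumour-free). The nuclear sums of forebrain with tumour, 14356 to 15309, lie below all other libraries, while the mitochondrial sums of the groups overlap.

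Complex I, the NADH dehydrogenase, takes electrons from NADH. Of its 33 nuclear members 26 fell in FBMet, with a median log2 difference of -0.39 and a range of -0.59 (Ndufs5) to -0.05 (Ndufa5). Among the core subunits, which carry the flavin and the iron-sulphur clusters or sit beside them, Ndufs1, Ndufs3, Ndufs7, Ndufs8, Ndufv1 and Ndufv2 fell, by 0.39 to 0.50 on the log2 scale.

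The largest called differences in complex I were in supernumerary subunits, which surround the catalytic core. Ndufb6, a membrane arm subunit, stood at 85.3, 77.1 and 81.2 in FBMet, against 117, 111, 116 and 142 in FB. The FBMet libraries lay far below all FB libraries, and the log2 difference of -0.57 ± 0.08 (SE) had an adjusted p of 0.000327 in limma, the lowest among the members. Ndufa11, which sits where complex I meets complex III in supercomplexes, had 21.2, 19.0 and 19.8 in FBMet, against 25.5, 28.1, 33.6 and 35.2 in FB, and its log2 difference was -0.58 ± 0.10 (SE; limma adjusted p = 0.00118). Ndufs5 was at 28.3, 27.2 and 25.1 in FBMet, against 32.7, 38.6, 44.8 and 49.9 in FB (log2 difference -0.59 ± 0.12 SE, limma adjusted p = 0.0024). The groups did not overlap for either gene, though FB replicate 1 came closest to FBMet in both.

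Ndufa5 was the nuclear complex I member with the smallest difference. Its level was 149, 148 and 150 in FBMet, against 136, 131, 177 and 181 in FB. The FB libraries split on either side of the FBMet libraries, and the log2 difference of -0.05 ± 0.11 (SE) did not pass (limma adjusted p = 0.758).

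Complex III, the cytochrome bc1 complex, passes electrons from ubiquinol to cytochrome c. Of its 8 nuclear members 7 fell in FBMet, with a median log2 difference of -0.40. The core proteins Uqcrc1 and Uqcrc2 and the Rieske iron-sulphur protein Uqcrfs1 had the largest called differences. Uqcrc2 was at 320, 289 and 336 in FBMet, against 414, 446, 443 and 509 in FB, groups that lie well apart (log2 difference -0.52 ± 0.08 SE, limma adjusted p = 0.000515). The log2 difference was -0.46 ± 0.09 (SE; limma adjusted p = 0.00222) for Uqcrc1 and -0.41 ± 0.08 (SE; limma adjusted p = 0.00249) for Uqcrfs1. The member not called was the hinge protein Uqcrh, at 296, 271 and 270 in FBMet, against 284, 298, 375 and 370 in FB (log2 difference -0.24 ± 0.09 SE, limma adjusted p = 0.0669). Its groups overlapped through FB replicate 1.

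Complex IV, cytochrome c oxidase, reduces oxygen. It had the lowest share of nuclear members called, 8 of 17, with a median log2 difference of -0.34. Among the 11 common forms 7 fell, and among the 6 tissue-restricted forms 1 did, Cox6a2. Cox5a, a common subunit, was at 185, 170 and 194 in FBMet, against 239, 258, 271 and 321 in FB. Every FBMet library lay below every FB library, and the log2 difference was -0.56 ± 0.10 (SE; limma adjusted p = 0.00116). Cox7c was at 102, 93.7 and 80.2 in FBMet, against 122, 113, 123 and 150 in FB (log2 difference -0.46 ± 0.11 SE, limma adjusted p = 0.00576). Cox4i1, the common form of the largest nuclear subunit, also fell (log2 difference -0.38 ± 0.11 SE, limma adjusted p = 0.024), a call lost in 4 of the 14 fits that left out 1 library (adjusted p up to 0.0978, without FBMet replicate 2). Cox6c was the one common form whose value lay above 0: it stood at 233, 207 and 210 in FBMet, against 195, 193, 196 and 255 in FB. Only FB replicate 4 exceeded the FBMet libraries, and the log2 difference of 0.06 ± 0.09 (SE) was not called (limma adjusted p = 0.684).

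Complex V consists of an F1 head that makes ATP, a ring of c subunits that turns in the membrane, and a peripheral stalk that holds the head still. Of its 15 nuclear members 12 fell, with a median log2 difference of -0.40. All 5 subunits of the head and central stalk (Atp5a1, Atp5b, Atp5c1, Atp5d and Atp5e) fell, as did 3 of 4 peripheral stalk genes, 2 of 3 c subunit genes and 2 of 3 small membrane subunits. Atp5b, the catalytic beta subunit, was at 1626, 1513 and 1673 in FBMet, against 2025, 2179, 2337 and 2474 in FB. The groups were clearly apart (log2 difference -0.49 ± 0.08 SE, limma adjusted p = 0.000934). Atp5o, the stalk subunit that confers oligomycin sensitivity, was at 294, 264 and 272 in FBMet, against 354, 368, 437 and 433 in FB (log2 difference -0.52 ± 0.09 SE, limma adjusted p = 0.00142).

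Atp5g1, Atp5g2 and Atp5g3 encode the same mature c subunit with different import sequences. Atp5g3 supplied 84.4% ± 2.47 (SD, n = 3) of their summed level in FBMet and 85.6% ± 1.36 (SD, n = 4) in FB, a difference smaller than either spread. Atp5g3 was at 241, 215 and 241 in FBMet, against 313, 311, 316 and 368 in FB (log2 difference -0.49 ± 0.08 SE, limma adjusted p = 0.000585). Atp5g1 also fell (log2 difference -0.40 ± 0.14 SE, limma adjusted p = 0.0385; lost in 6 of 14 fits without 1 library, up to an adjusted p of 0.177 without FBMet replicate 1), and Atp5g2 had a log2 difference of -0.30 ± 0.13 (SE) that was not called (limma adjusted p = 0.0963). None of the 4 accessory genes was called, by adjusted p, and 1 of them had an unadjusted p under 0.05 in the lower direction.

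**Figure D2:**
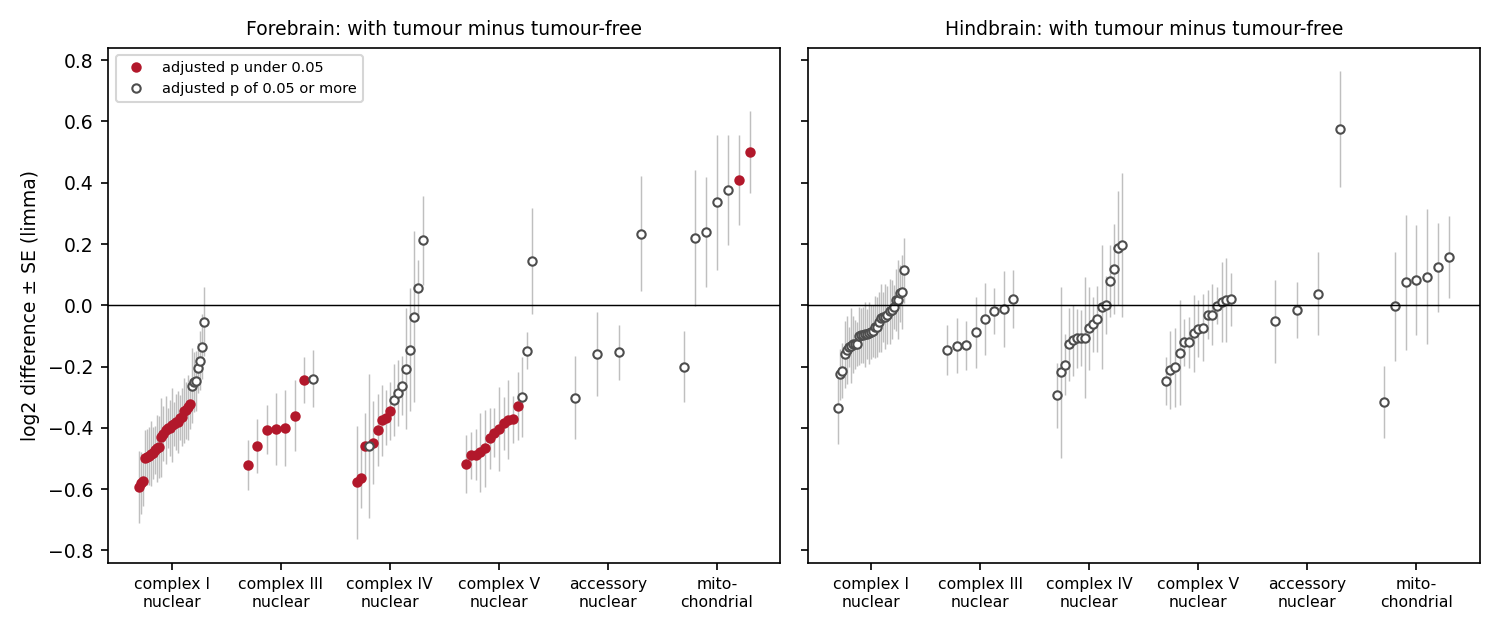
Log2 difference of each of the 84 tested members, with tumour minus tumour-free, in forebrain (left) and hindbrain (right), grouped by complex and genome and ordered by size within a group. Bars are the SE from limma, and filled red points have an adjusted p under 0.05. In forebrain 53 nuclear members are called lower and 2 mitochondrial members higher; in hindbrain no member is called.

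The mitochondrial members lay on the other side of 0. Of the 7 tested, 6 had a positive log2 difference in FBMet, with a median of 0.34, and 2 rose. mt-Cytb, the cytochrome b of complex III, was at 11201, 14682 and 11409 in FBMet, against 10474, 8657, 7080 and 9034 in FB. The groups did not overlap, which held in the higher direction for 1 of the 84 members against 17.1% of all genes tested (log2 difference 0.50 ± 0.13 SE, limma adjusted p = 0.0126). mt-Nd4, a proton-pumping subunit of complex I, was at 4176, 5261 and 4336 in FBMet, against 4346, 3454, 2854 and 3264 in FB, so that FB replicate 1 lay among the FBMet libraries (log2 difference 0.41 ± 0.15 SE, limma adjusted p = 0.0468). Without FBMet replicate 2 neither passed, with adjusted p of 0.0835 for mt-Cytb and 0.213 for mt-Nd4, and mt-Nd4 was lost in 9 of the 14 fits that left out 1 library. Under quantile normalization neither passed, and mt-Cytb and mt-Co1 turned to negative values.

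The other mitochondrial members were not called. mt-Co1, the catalytic subunit of complex IV, was at 11341, 12680 and 11067 in FBMet, against 13322, 9298, 7747 and 9964 in FB, and its highest value was that of FB replicate 1. The log2 differences were 0.22 ± 0.22 (SE) for mt-Nd1, 0.34 ± 0.22 (SE) for mt-Nd2, 0.38 ± 0.18 (SE) for mt-Nd5 and 0.24 ± 0.18 (SE) for mt-Co1, and mt-Nd5 was called without FB replicate 1 (limma adjusted p = 0.0176). mt-Nd6 was the one member of this group below 0, at 489, 523 and 457 in FBMet, against 599, 495, 507 and 660 in FB (log2 difference -0.20 ± 0.12 SE, limma adjusted p = 0.213). mt-Nd6 is the one protein gene encoded on the light strand; whether reads were counted by strand is not given in the sources used here, so its reads and those of the opposite strand may be mixed. Nuclear copies of mitochondrial DNA can also share reads with all of these genes.

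Set against each other within a library, the genomes gave a mitochondrial to nuclear ratio of 2.86, 3.76 and 3.07 in FBMet, against 2.91, 1.97, 1.43 and 1.74 in FB. The groups overlapped through FB replicate 1, whose mitochondrial sum of 50145 was the highest of the FB libraries. Within complex III, the ratio of mt-Cytb to the summed nuclear subunits was 6.45, 8.97 and 6.77 in FBMet, against 5.40, 4.11, 3.00 and 3.53 in FB. This ratio could not overlap, because its parts lay apart in opposite directions. Every FBMet library was above FB for mt-Cytb and below FB for the nuclear sum, at 1637 to 1738 against 1939 to 2557. In complex I the same kind of ratio overlapped, at 5.35 to 7.04 in FBMet and 2.71 to 5.87 in FB. For mt-Co1 in complex IV it overlapped too, at 2.74 to 3.24 in FBMet and 1.39 to 3.02 in FB. The mitochondrial ribosomal RNAs, which are no members, were higher in FBMet: mt-Rnr1 was at 9023, 7984 and 7920 in FBMet, against 5372, 5369, 3970 and 5857 in FB. In hindbrain mt-Rnr1 was at 4722, 7846 and 6374 in HBMet, against 3865, 3478, 4939 and 4972 in HB, with overlapping groups and a ratio of means of 1.46. The ratio of the mitochondrial members to the ribosomal RNAs mt-Rnr1 and mt-Rnr2 averaged 3.29 ± 0.554 (SD, n = 3) in FBMet and 3.99 ± 0.702 (SD, n = 4) in FB, and 4.27 ± 0.426 (SD, n = 3) in HBMet and 5.28 ± 0.817 (SD, n = 4) in HB, overlapping in both regions. How much of each library is ribosomal RNA depends on its preparation, and the part of this in the result was not tested.

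In hindbrain the same comparison gave no called member. Of the 84 tested, 0 rose and 0 fell in HBMet by limma's adjusted p, where 2.92% of all genes were called higher and 0.33% lower. At an unadjusted p under 0.05, 1 member was higher and 6 were lower, against 7.86% and 7.07% of all genes; voom on recovered reads likewise called 0, with 1 higher and 5 lower at an unadjusted p under 0.05. The median log2 difference of the nuclear members was -0.07, which is 5.04% lower, and 61 of 77 lay below 0. The median SE of a nuclear member was 0.10, so differences of this size were not detectable gene by gene.

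The summed level of the nuclear members was 21478, 18914 and 20112 in HBMet, against 22185, 22291, 19385 and 21677 in HB. The groups overlapped, with HB replicate 3 among the HBMet libraries. The means were 20168 ± 1283 (SD, n = 3) in HBMet and 21384 ± 1360 (SD, n = 4) in HB, a ratio of 0.943. By complex, the median log2 difference of the nuclear members was -0.09 for complex I, -0.07 for complex III, -0.07 for complex IV and -0.08 for complex V. The lowest adjusted p was 0.129 (limma), for Atp5g3, at 342, 300 and 326 in HBMet, against 396, 352, 380 and 402 in HB (log2 difference -0.25 ± 0.08 SE). Atp5g3 was 1 of 6 members whose HBMet libraries all lay below HB, against 5.5% of all genes tested.

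Ndufa4l2 and mt-Nd6 also had groups that did not overlap in hindbrain. Both belong to the sets named whatever their values, but they were singled out at this point after their values were seen. Ndufa4l2, a hypoxia-inducible relative of Ndufa4, was at 4.63, 4.34 and 3.48 in HBMet, against 3.43, 2.70, 1.64 and 2.24 in HB. It was the 1 member, where 7.26% of all genes tested did so, whose HBMet libraries all lay above HB. It was also the one member higher at an unadjusted p under 0.05, with a log2 difference of 0.58 ± 0.19 (SE; limma adjusted p = 0.147), and it was called without HB replicate 1 (adjusted p = 0.0433). mt-Nd6 was at 459, 466 and 478 in HBMet, against 540, 537, 735 and 539 in HB (log2 difference -0.32 ± 0.12 SE, limma adjusted p = 0.208). The other 6 mitochondrial members overlapped between HBMet and HB, with log2 differences of -0.00 to 0.16.

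Calls in forebrain and none in hindbrain do not by themselves show that the regions differ, so the difference between the 2 tumour contrasts was tested. No member passed in limma: 0 of 84 were higher and 0 lower by adjusted p, where 0.254% and 0.203% of all genes passed, and the lowest adjusted p was 0.09, for Ndufv2. At an unadjusted p under 0.05 the forebrain contrast was lower for 37 members and higher for 0, where 9.98% of all genes were lower and 9.58% higher; voom on recovered reads called 0, with 44 lower at that level. The median difference between the contrasts was -0.29 for the nuclear members on the log2 scale, with 73 of 77 below 0, against -0.02 over all genes tested. With library weights 5 members passed in the lower direction, and without FB replicate 1, 2 did. Ndufv2, a core subunit of complex I, illustrates the pattern: it was at 185, 182 and 193 in FBMet, against 226, 231, 249 and 275 in FB, and at 305, 279 and 302 in HBMet, against 317, 287, 284 and 298 in HB. Its groups lay apart in forebrain and overlapped in hindbrain.

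**Figure D3:**
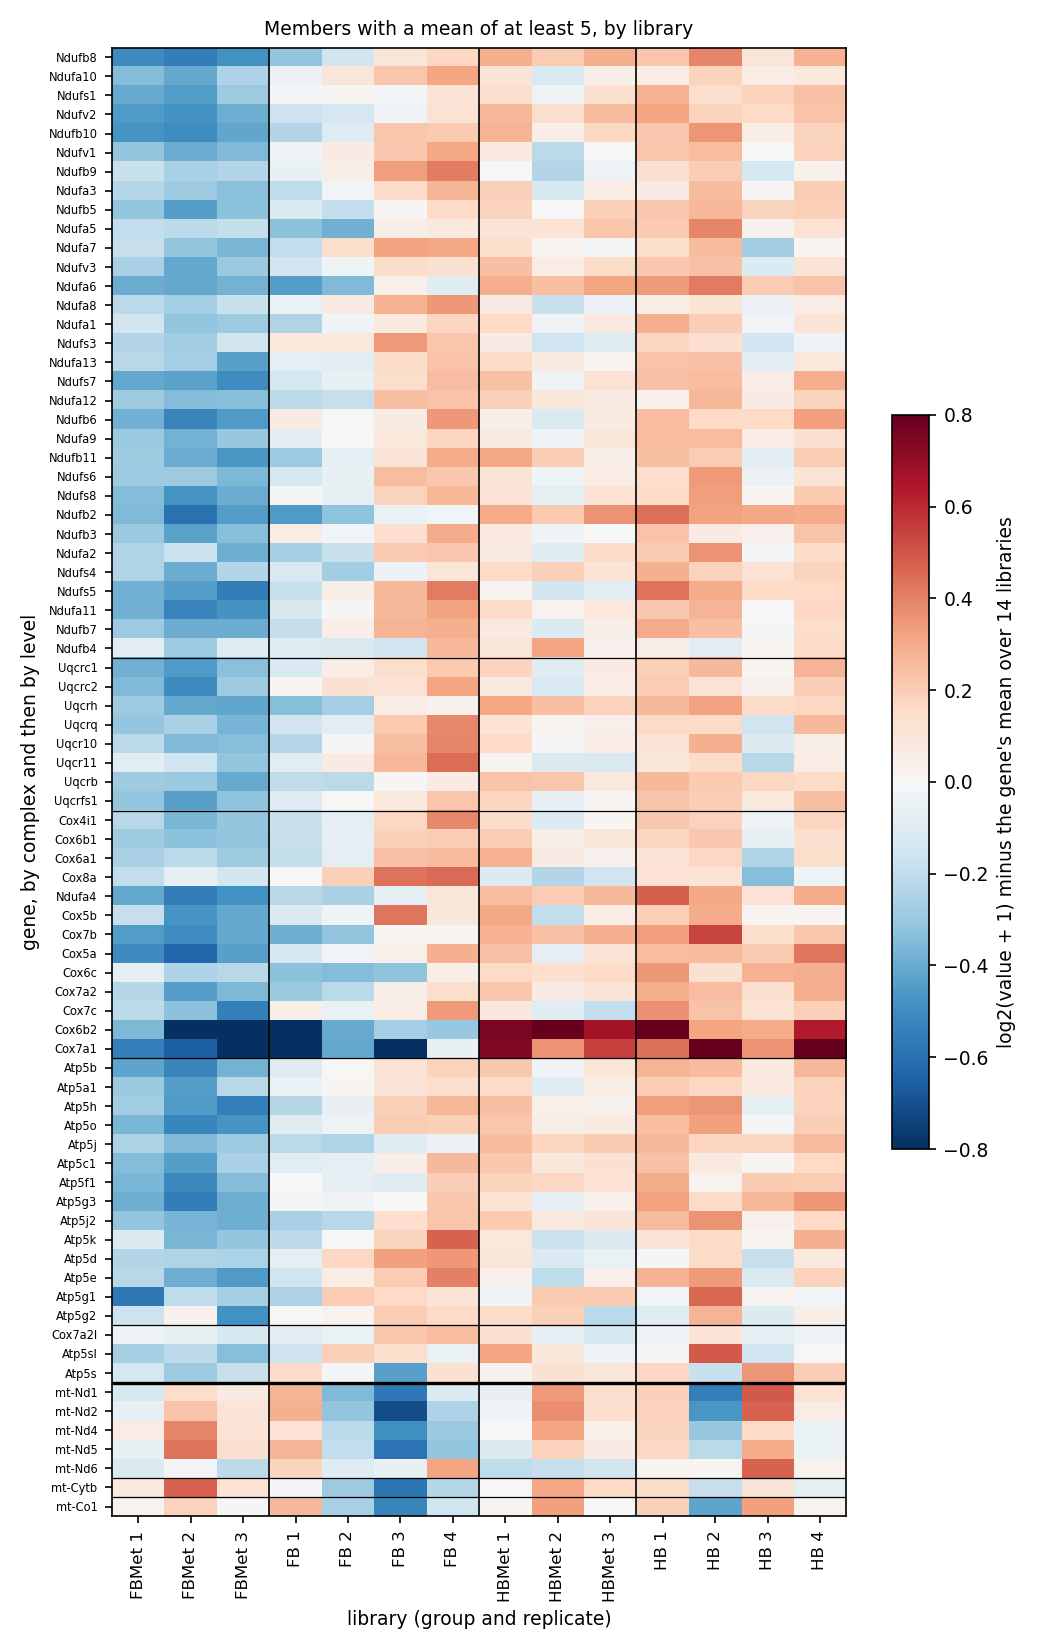
Heat map of the tested members with a mean of at least 5 over the 4 groups, in every library; 1 member is not shown. Colour is log2(value + 1) minus the gene's mean over the 14 libraries, with colours saturated beyond 0.8 in either direction; thin lines part the complexes, the thick line parts nuclear from mitochondrial genes. The 3 FBMet columns are blue for nearly all nuclear genes, FB replicates 1 and 2 are mostly lower than replicates 3 and 4, and the mitochondrial rows do not follow the nuclear ones.

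Other cell types moved with the same contrasts. In forebrain, all 9 tested markers of microglia and macrophages rose, with a summed level of 518 to 655 in FBMet, against 220 to 232 in FB. In hindbrain 8 of 9 rose, with a summed level of 335 to 442 in HBMet, against 134 to 181 in HB. Of 8 astrocyte markers, 5 rose in FBMet, and the summed level was 16718 to 21497 in FBMet, against 10792 to 12712 in FB. The sum rests mostly on the glutamate transporter Slc1a2, while the gliosis marker Gfap had the largest difference (log2 2.28 ± 0.25 SE, limma adjusted p = 3.9e-05). In hindbrain 1 of 8 rose, Gfap, and the summed levels overlapped, at 12212 to 13324 in HBMet and 11172 to 13297 in HB.

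Of 13 neuronal markers 6 fell and 1 rose in FBMet, with a median log2 difference of -0.26. Their summed level overlapped, at 5191 to 6103 in FBMet and 5561 to 6227 in FB. Tubb3, a neuronal tubulin, had a mean of 152 in FBMet and 264 in FB (log2 difference -0.79 ± 0.11 SE, limma adjusted p = 0.000284). Slc17a6, a glutamate transporter of vesicles that is high in thalamus and brainstem, had a mean of 21.7 in FBMet and 76.7 in FB (log2 difference -1.81 ± 0.18 SE, limma adjusted p = 1.8e-05). In hindbrain 0 of 13 neuronal markers were called by limma, 6 were lower at an unadjusted p under 0.05, all 13 lay below 0, and the median was -0.22. The difference between the 2 tumour contrasts passed for Slc17a6 (log2 -1.63 ± 0.26 SE, limma adjusted p = 0.0223) and for Stmn2, a neuronal growth protein (-0.51 ± 0.10 SE, limma adjusted p = 0.0485). Over all 13 neuronal markers the median of that difference was only -0.03, with 7 below 0. At an unadjusted p under 0.05 in limma, 2 neuronal markers were higher and 3 lower. Of the other markers the difference passed for 1, the fibroblast gene Dcn (-1.40 ± 0.22 SE, limma adjusted p = 0.0178), so that it was lower for 3 of the 76 markers tested and higher for 0. Over the 6 fibroblast markers its median was 0.14, with 2 below 0. Endothelial markers rose for 4 of 7 and pericyte and smooth muscle markers for 3 of 7 in FBMet, and none of either list was called in HBMet by limma, with 1 endothelial marker higher and 1 lower at an unadjusted p under 0.05. Oligodendrocyte markers gave 0 of 8 calls by limma in either contrast, with 1 higher in FBMet at an unadjusted p under 0.05 and 0 in HBMet. Of 6 fibroblast markers 1 fell in FBMet, Dcn (log2 difference -1.18 ± 0.15 SE, limma adjusted p = 0.000118). The list as a whole did not follow Dcn: its median log2 difference in FBMet was 0.09, with 2 of 6 below 0. The summed levels overlapped, at 135 to 174 in FBMet and 143 to 152 in FB. In HBMet limma called 0 fibroblast markers, and 0 had an unadjusted p under 0.05. Choroid plexus markers, none of 5 called by limma and 2 lower in FBMet at an unadjusted p under 0.05, varied widely between libraries, with summed levels of 25.9 to 1224 in FBMet and 266 to 886 in FB.

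Markers of red blood cells lay below 0 in both contrasts. Their summed level was 42.7 to 162 in FBMet, against 131 to 613 in FB, and all 5 had a negative log2 difference, with a median of -1.73. In hindbrain the summed level was 98.9 to 294 in HBMet, against 154 to 1276 in HB, with a median log2 difference of -1.27 and again all 5 below 0. Limma called 0 of the 5 in either contrast, and at an unadjusted p under 0.05, 3 were lower in FBMet and 0 in HBMet. The groups overlapped in both regions. None of the markers used was at 0 in every library. Of the 8 cerebellar neuron markers, 0 lay below 0 in HBMet, with a median log2 difference of 0.38 and 0 called by limma. In FBMet 5 lay below 0, with a median of -0.13 and 1 called lower. Between the 2 tumour contrasts all 8 differences were below 0, with a median of -0.59 and 0 called. Of the 5 choroid plexus markers 0 lay below 0 in HBMet, with a median of 0.40. The part of all these marker shifts, and of the piece of forebrain or hindbrain dissected, in the levels of the nuclear members was not tested.

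Genes that work beside the members were followed in lists chosen for function. All 4 subunits of complex II, which carries electrons from succinate and is wholly nuclear, fell in FBMet, with a median log2 difference of -0.42; Sdhb had a mean of 112 in FBMet and 158 in FB. Of 6 further subunits and carriers not covered by the symbol rule, 4 fell, led by the electron carrier cytochrome c (Cycs, log2 difference -0.58 ± 0.09 SE, limma adjusted p = 0.000377) and cytochrome c1 (Cyc1, -0.50 ± 0.10 SE, limma adjusted p = 0.00231). Of 35 assembly factors 18 fell and none rose, among them Coa3, a factor for complex IV, with a log2 difference of -0.55 ± 0.11 (SE; limma adjusted p = 0.0021).

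Of 17 genes of the tricarboxylic acid cycle 13 fell and 1 rose in FBMet. Idh3a, a subunit of the NAD-dependent isocitrate dehydrogenase, had a mean of 94.2 in FBMet and 135 in FB (log2 difference -0.52 ± 0.07 SE, limma adjusted p = 0.000164). Of 11 genes for the outer membrane and protein import 9 fell, with Timm23, a channel of the inner membrane import complex, at a log2 difference of -0.45 ± 0.07 (SE; limma adjusted p = 0.00072). Regulators of mitochondrial transcription and biogenesis gave few calls in either direction: of 17, 2 fell (Esrra, a nuclear receptor, by 0.33 and Tfam, which packages mitochondrial DNA, by 0.29 on the log2 scale) and 3 rose (among them the coactivators Ppargc1b, by 0.39, and Pprc1, by 0.29), where 16% of all genes tested were called lower and 14.4% higher.

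Glycolysis, which makes ATP without oxygen, leaned lower in FBMet as well, with a median log2 difference of -0.23 and 17 genes below 0. Its summed level was 11457 to 12192 in FBMet, below the 12835 to 15050 of FB. Of 22 genes 11 fell and 3 rose in FBMet, where 16% of all genes tested were called lower and 14.4% higher. Pgam1 fell by 0.65 and Pgk1 by 0.53 on the log2 scale, both enzymes of lower glycolysis. Hk2, a hexokinase, rose to a mean of 10.2 in FBMet, against 2.45 in FB (log2 difference 1.69 ± 0.19 SE, limma adjusted p = 3.1e-05). It was also the 1 gene of the 112 in these 7 lists for which the difference between the 2 tumour contrasts passed (log2 1.36 ± 0.26 SE, limma adjusted p = 0.0391). In hindbrain limma called 0 of the 112 genes, 5 were higher and 12 lower at an unadjusted p under 0.05, and the list medians lay between -0.13 and -0.01.

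The regions themselves were compared in tumour-free brain. Of the 84 members, 2 were higher and 23 lower in FB than in HB by limma, while 20.2% of all genes tested were higher and 32.5% lower, so the share of members called lower, 27.4%, was below that of all genes. The median log2 difference was -0.13 over the members and -0.09 over all genes. Under median-of-ratios scaling the counts were 5 higher and 15 lower, and over all genes 4221 higher and 4037 lower in place of 3194 and 5133. By complex, 8 of 33 nuclear members of complex I, 2 of 8 of complex III, 10 of 17 of complex IV and 3 of 15 of complex V were lower in FB.

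Of the 6 tissue-restricted forms of complex IV subunits, 1 was higher in FB than in HB and 5 were lower. Cox6a2, the heart and skeletal muscle form of subunit 6a, was at 5.26, 6.60, 7.77 and 7.30 in FB, against 0.103, 1.21, 0.623 and 0.743 in HB. No FB library came near the HB libraries, and the log2 difference was 2.24 ± 0.17 (SE; limma adjusted p = 7.22e-08). Cox6a2 held 1 to 158 reads per library, so the lowest values rest on very few reads. Tumour-bearing hindbrain lay in the range of HB, at 0.914, 0.929 and 0.698. Even in forebrain Cox6a2 was a minor form, with 0.856% ± 0.108 (SD, n = 3) of the summed level of Cox6a2 and Cox6a1 in FBMet and 1.11% ± 0.0751 (SD, n = 4) in FB. Cox6a2 itself was at 4.45, 3.64 and 4.37 in FBMet, below every FB library (log2 difference -0.58 ± 0.19 SE, limma adjusted p = 0.0297). This call was lost in 6 of the 14 fits that left out 1 library, with an adjusted p of up to 0.126 without FBMet replicate 2.

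The 5 lower forms were Cox7a1, Cox6b2, Cox8b, Cox4i2 and Cox7b2. Cox7a1, also a heart and muscle form, was at 2.49, 3.64, 2.53 and 4.91 in FB, against 7.35, 11.1, 6.89 and 10.1 in HB (log2 difference -1.18 ± 0.18 SE, limma adjusted p = 7.86e-05). Cox6b2, the testis form, was at 3.30, 4.91, 5.47 and 5.33 in FB, against 15.2, 8.73, 8.59 and 11.1 in HB (log2 difference -1.04 ± 0.22 SE, limma adjusted p = 0.00109). Cox8b, a further muscle form, was at 0.203, 1.06, 0.544 and 2.18 in FB, against 3.12, 4.74, 2.69 and 5.26 in HB (log2 difference -1.37 ± 0.26 SE, limma adjusted p = 0.00045); it held 1 to 87 reads per library. For Cox7a1, Cox6b2 and Cox8b the FB libraries lay below the HB libraries without overlap, as they did for 15 of the 84 members and 27.3% of all genes tested, and their common partners Cox7a2, Cox6b1 and Cox8a had log2 differences of -0.32, -0.08 and 0.31. Cox7a1 made up 1.48% ± 0.393 (SD, n = 4) of the Cox7a pair in FB and 3.06% ± 0.633 (SD, n = 4) in HB. Cox4i2, the lung form of subunit 4, was at 2.10, 3.02, 3.13 and 3.49 in FB, against 4.51, 3.55, 3.23 and 5.02 in HB (log2 difference -0.37 ± 0.13 SE, limma adjusted p = 0.0327; lost in 3 of 14 fits without 1 library, up to an adjusted p of 0.107 without FB replicate 1). Cox7b2, the restricted form of subunit 7b, was at 2.69, 1.12, 1.20 and 1.08 in FB, against 1.81, 2.50, 2.90 and 2.45 in HB (log2 difference -0.47 ± 0.19 SE, limma adjusted p = 0.0469), and held 8 to 75 reads per library. Its call was lost in 10 of 14 fits without 1 library, up to an adjusted p of 0.126 without FB replicate 4, and is uncertain. The groups overlapped for both genes, and neither was called by voom on recovered reads (adjusted p of 0.127 for Cox4i2 and 0.102 for Cox7b2). Limma called 0 of the 5 with tumour in either region, and 0 had an unadjusted p under 0.05.

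**Figure D4:**
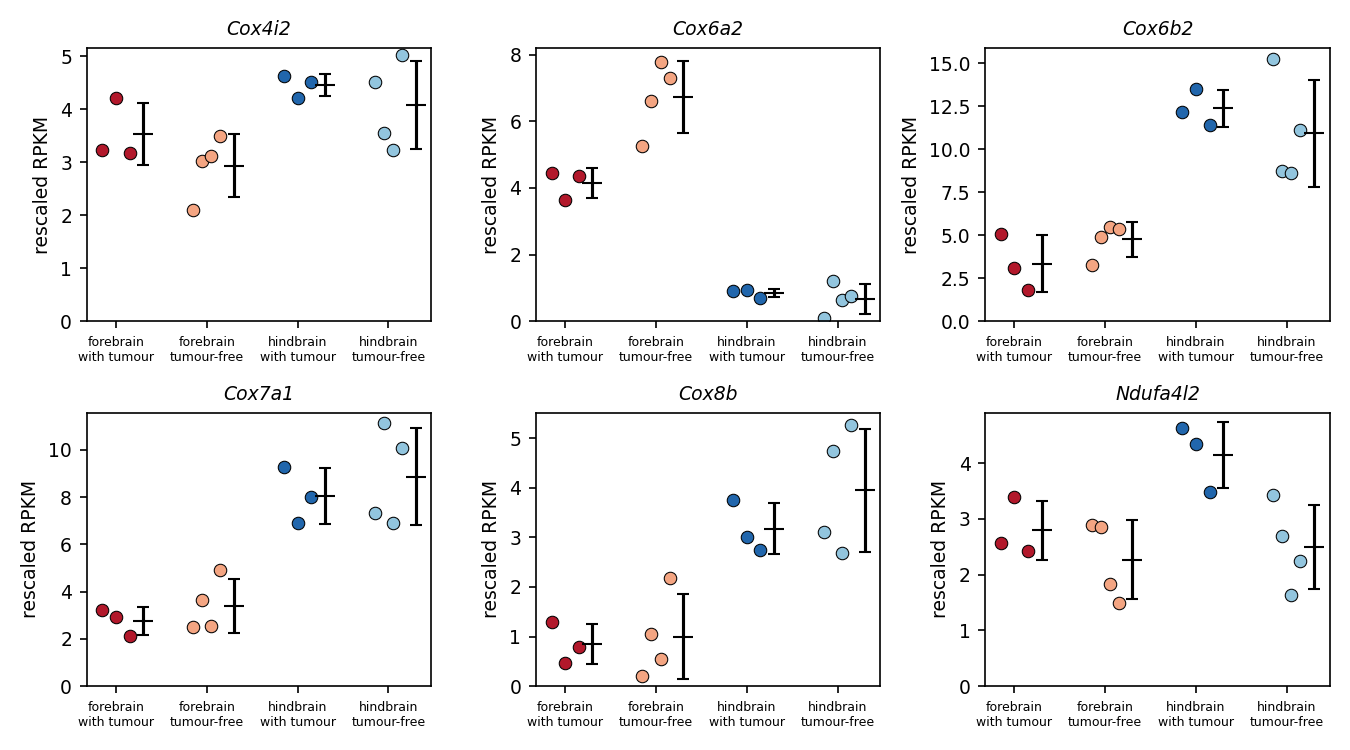
Rescaled RPKM of 5 tissue-restricted forms of complex IV subunits and of Ndufa4l2 in each library; points are libraries and the bar beside them is the mean ± SD (n = 3 with tumour, n = 4 tumour-free). Cox6a2 is high in both forebrain groups, at 3.64 to 7.77, and at most 1.21 in hindbrain, while Cox6b2, Cox7a1 and Cox8b are higher in hindbrain.

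Cox4i2, whose expression is linked to low oxygen, had a log2 difference of 0.21 ± 0.15 (SE) between FBMet and FB that was not called (limma adjusted p = 0.292). As a share of the Cox4 pair it was 0.400%, 0.574% and 0.416% in FBMet, against 0.252%, 0.336%, 0.296% and 0.283% in FB. These shares did not overlap, and Cox4i1, the larger part of the pair, was itself called lower in FBMet. In hindbrain the Cox4i2 shares overlapped, at 0.444% to 0.482% in HBMet and 0.330% to 0.472% in HB. Ndufa4l2 made up 0.727%, 0.702% and 0.544% of its pair with Ndufa4 in HBMet, against 0.460%, 0.408%, 0.283% and 0.341% in HB, also without overlap. In forebrain the Ndufa4l2 shares overlapped, at 0.633% to 0.929% in FBMet and 0.262% to 0.637% in FB. The log2 difference of Ndufa4l2 there was 0.23 ± 0.19 (SE) and was not called (limma adjusted p = 0.373).

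Some common subunits were also called between regions, mostly at shares no larger than that of all genes. Called lower in FB were 24.2% of the nuclear members of complex I, 25% of complex III and 20% of complex V. Among the common forms of complex IV it was 45.5%, where 32.5% of all genes tested were called lower. Ndufb2 and Ndufa6, supernumerary subunits of complex I, had log2 differences of -0.56 ± 0.09 and -0.51 ± 0.09 (SE) in FB, with Ndufa5 at -0.33 ± 0.10, which missed the threshold without FB replicate 2 (limma adjusted p = 0.0519). Cox6c was at 195, 193, 196 and 255 in FB, against 313, 267, 297 and 300 in HB, without overlap (log2 difference -0.50 ± 0.08 SE, limma adjusted p = 0.000191). In complex V, Atp5j, a peripheral stalk subunit, was lower in FB (log2 difference -0.36 ± 0.06 SE; limma adjusted p = 7.31e-05). Cox8a, the common form of subunit 8, was the second member higher in FB, at 565, 646, 764 and 773, against 611, 610, 445 and 550 in HB, with overlapping groups (log2 difference 0.31 ± 0.11 SE, limma adjusted p = 0.0273; lost in 4 of 14 fits without 1 library, up to 0.0914 without HB replicate 3). Brain regions differ in cell make-up as well: all 8 oligodendrocyte markers and all 8 cerebellar neuron markers were lower in FB than in HB. Microglia and macrophage markers were higher in FB for 8 of 9, astrocyte markers lower for 6 of 8 and higher for 1, and fibroblast markers lower for 5 of 6 and higher for 1. Of 13 neuronal markers 4 were higher and 3 lower in FB, and 2 of 7 endothelial and 2 of 7 pericyte and smooth muscle markers were lower. Over all genes tested 20.2% were higher and 32.5% lower, so these last 3 lists had no larger share called lower than all genes. The part of this in the members' differences was not tested.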

How the data were processed

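The deposited tables hold the authors' RPKM per gene for mouse and human genes; per the submitters' processing notes the builds were mm10 (GRCm38) and hg38 (GRCh38), with no aligner or counting tool named there. Each of the 14 brain libraries was rescaled to 1000000 over mouse genes. Reads recovered from the RPKM steps were whole within 0.02 for 100% of 32644 genes above 0. This share is partly fixed by the method, since genes seen in only 1 library were set to 1 read. The recovered reads gave the depths and an alternative test, and recovery was tested on simulated data. Genes of at least 1 in at least 3 libraries (15777) entered 1 fit of all 4 groups with limma 3.58.1 (R 4.3.3; trend and robust spread) on log2(value + 1). Called means a Benjamini-Hochberg adjusted p under 0.05 over all genes tested.

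Members, lists and tests were chosen with earlier results of these data known. All mitochondrial members and isoform pairs are named, with up to 3 nuclear members per complex, comparison and direction that were called and had a mean of at least 5; others named were picked after their values were seen. Itgam, with 2 gene identifiers, was left out of the microglial list. Tests across genes were checked on simulated data. Same-numbered FBMet and HBMet libraries deviated together (correlations of 0.238 to 0.437, other pairs at most -0.0397), which comes from the data and not the labels; FB and HB did not in every pair (-0.0577 to 0.365), nor did FBMet and FB or HBMet and HB. A total of 25 alternative settings were tried, 14 of which left out 1 library. Values of 1 complex I member are not reported here.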

Additional observations from a re-analysis of the deposited data

Results flagged for a closer look

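Tests for a library far from the other 3 of its group were made on 136 sets of 4 libraries with Dixon's criterion, and 12 were flagged; chance flags about 1 in 20. In HB, replicate 3 was far below the others for Atp5b, at 2295, for Cox6a1, at 487, for the summed nuclear subunits of complex III, at 2157, and of complex V, at 7051. The same library was far above the others for mt-Nd6, at 735. HB replicate 2 was far above the others for Atp5g1, at 39.5, and below them for the share of Atp5g3 among the c subunit genes, at 83.8%. HB replicate 1 was far above the others for Ndufb2, at 116. In FB, replicate 4 was far above the others for Atp5g3, at 368, and for Cox6c, at 255, and replicate 1 for Cox7b2, at 2.69, and for the share of Cox7b2 in its pair with Cox7b, at 0.970%.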

How the results depend on the processing

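Of the 53 members called lower in FBMet, 32 were called in every setting and all 53 kept their sign; leaving out 1 library gave 33 to 61, and the replicate block 41. Members called higher in FBMet numbered 1 under median-of-ratios scaling, without the filter and with the replicate block, 0 under quantile normalization, and 0 to 3 without single libraries. Quantile normalization turned mt-Co1 to -0.44 (limma adjusted p = 0.0469) and mt-Cytb to -0.015 (limma adjusted p = 0.932); the cause was not tested. In hindbrain, library weights called 1 member lower, and leaving out 1 library 0 to 1 higher. For the difference between regions, library weights called 5 lower, leaving out 1 library 0 to 2, and the replicate block 0. Members higher in FB than in HB numbered 5 under median-of-ratios scaling, 1 under quantile normalization, without the filter, with only those groups fitted and with the replicate block, and 1 to 3 without single libraries; those lower numbered 15 under median-of-ratios scaling. The replicate numbers do not pair FBMet with FB or HBMet with HB. Depth limits the least abundant members: Cox8b held 1 to 87 reads per library, Cox6a2 1 to 158, Cox7b2 8 to 75 and Atp5l 10 to 93.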
